A study of Mus musculus with 8 samples.

Results

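The genes described here are 10 cardiac transcription factor genes, the core regulators of the first and second heart field, in mouse embryoid bodies collected on day 9 of differentiation. They were taken by name and are the zinc finger genes Gata4, Gata5 and Gata6, the basic helix-loop-helix genes Hand1 and Hand2, the homeobox genes Nkx2-5 and Isl1, the T-box genes Tbx5 and Tbx20, and the MADS box gene Mef2c. All 10 were found among 53680 gene names in the deposited table, at 11 of 52281 named loci, because Hand1 named 2 loci. An embryoid body is an aggregate in which embryonic stem cells differentiate into derivatives of all germ layers. The 8 libraries formed 4 groups of 2. The Prdm16 knockout (genotype PRDM16 KO) was set against its own wild-type control, and the PR domain knockout (genotype PR domain KO, which the sample names place at exon 4 of the gene) against a separate wild-type control. All groups were embryonic stem cell derivatives on a C57BL/6 background, grown in medium with fetal bovine serum, and the labels name no inducing factor. The labels do not say whether a genotype was 1 clone or several, nor where the 2 libraries of a group came from. The p-values therefore rest on the spread of libraries that may be technical replicates, and genotype and clone cannot be told apart.

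In the mouse embryo the first heart field gives rise mainly to the left ventricle, and the second heart field, marked by Isl1, adds cells to the outflow tract, the right ventricle and the atria. Gata4, Nkx2-5, Tbx5, the Hand factors and Mef2c bind enhancers of contractile genes together and sustain each other's expression. Several are not restricted to the heart. Gata4 and Gata6 are also active in extraembryonic and gut endoderm, Hand1 in trophoblast and extraembryonic mesoderm, Isl1 in motor neurons, and Mef2c in skeletal muscle, neurons, endothelium and blood. Prdm16 encodes a zinc finger protein whose PR domain is related to histone methyltransferase domains.

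Libraries held 6273789 to 9086885 fragments on named loci. Levels are normalised fragments, the fragments of a locus divided by the size factor of its library, and are comparable between libraries for 1 gene but not between genes. Each fold change is a difference of log2(value + 1), by which low genes appear less changed than they are, with a standard error (SE) from limma and p-values adjusted over 16623 tested loci by the Benjamini-Hochberg method. A gene was called when its adjusted p was below 0.05. All 10 genes passed the filter on low values, and each did so in every group. Prdm16 itself had 11.2 and 1.10 normalised fragments in the Prdm16 knockout against 24.4 and 26.3 in its control (log2 fold change -2.38 ± 0.50 SE, limma adjusted p = 0.000306). It had 23.3 and 15.7 in the PR domain knockout against 44.6 and 22.7 in its control (-0.71 ± 0.50, limma adjusted p = 0.377), and fragments over the whole gene do not test the loss of 1 exon. The 4 Y-linked genes examined summed to 0 and 1.10 normalised fragments in the Prdm16 knockout libraries against 1246 and 1323 in its control. They summed to 3166 and 3082 in the PR domain knockout against 2752 and 2750.5 in its control, so that the Prdm16 knockout and the absence of Y-linked transcripts cannot be told apart for any gene below. In such bulk samples, fewer cells of a type and less RNA per cell cannot be told apart either.

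The cardiac transcription factor genes moved differently in the 2 knockouts. In the Prdm16 knockout, 7 of the 10 genes rose (Gata4, Gata5, Gata6, Hand1, Hand2, Tbx5 and Tbx20) and Isl1 fell, where 18.0% of all tested loci were called higher and 21.1% lower (39.1% in either direction). In the PR domain knockout, Gata4 and Gata6 rose and 5 genes fell (Hand1, Hand2, Nkx2-5, Isl1 and Mef2c), where 8.48% of tested loci were called higher and 10.7% lower (19.2% in either direction). The balance of these 2 directions over all loci depends on the scaling. For the Prdm16 knockout, 45.94% of the calls were higher here, against 52.63% with TMM scaling and 39.31% with total-fragment scaling, and edgeR called 3592 loci higher and 2878 lower. For the PR domain knockout, 44.2% of the calls were higher here, against 54.43% with the size factors of DESeq2. The median log2 fold change of the 10 genes was 0.57 in the Prdm16 knockout, beside -0.03 over all tested loci. In the PR domain knockout it was -0.24, beside -0.03 over all loci. The median size of the change, without its sign, was 0.60 and 0.27 for the 10 genes in the Prdm16 and the PR domain knockout, against 0.25 and 0.16 over all loci.

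**Figure D1:**
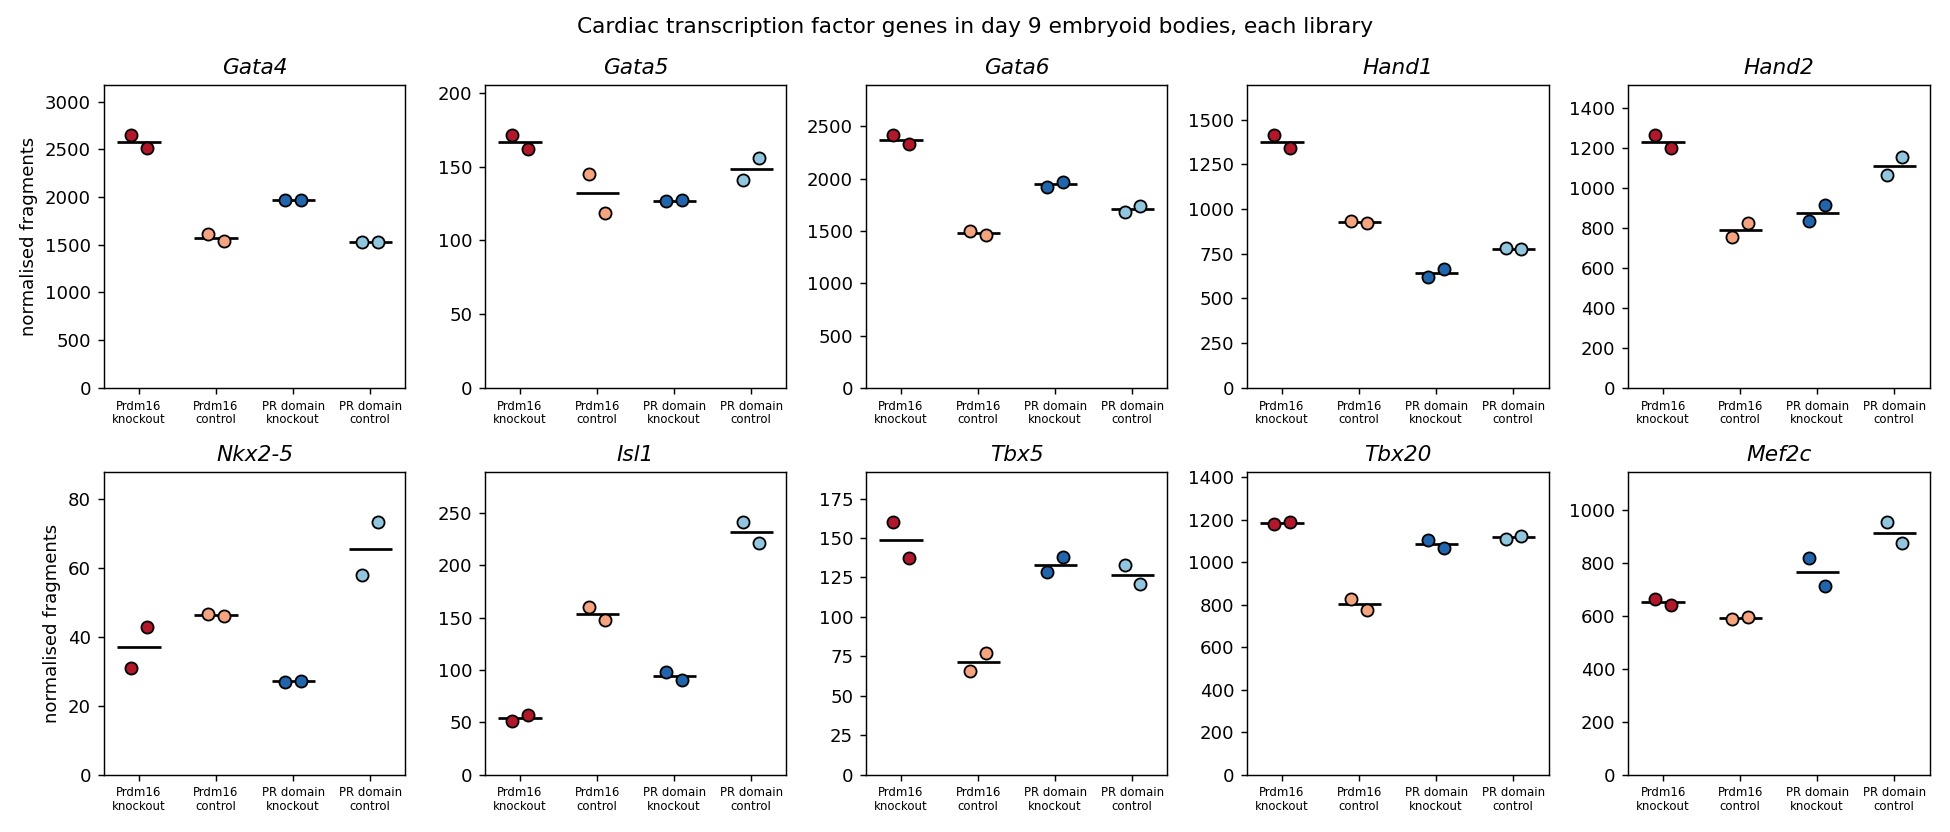
Normalised fragments (vertical axis, from 0) of each of the 10 genes in each of the 8 libraries, by group, with a bar at the mean of the 2 libraries. Gata4 lies at 2510 and 2646 in the Prdm16 knockout against 1539 and 1613 in its control, while Isl1 lies below its control in both knockouts.

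Levels between genes can be compared only per transcript length, and for this the FPKM values deposited by the authors (fragments scaled by transcript length and library size) were used. In the Prdm16 knockout the order was Gata4 at 147 ± 2.50 FPKM (SD, n = 2, as below), Hand1 at 120 ± 3.61, Gata6 at 113 ± 1.5, Hand2 at 62.8 ± 2.22, Tbx20 at 45.9 ± 2.45 and Mef2c at 27.7 ± 2.11. Its 4 lowest genes were Gata5, Tbx5, Isl1 and Nkx2-5, at 5.93 ± 0.24, 5.39 ± 0.20, 3.55 ± 0.86 and 3.06 ± 0.70 FPKM. In the Prdm16 control, Gata4 (93.3 ± 2.60), Hand1 (75.7 ± 13.7) and Gata6 (70.2 ± 3.55) again led, and Hand1 and Gata6 were closer to each other than the spread of Hand1. Isl1 stood there at 9.44 ± 0.50 FPKM, above Gata5 at 4.69 ± 0.67. In the PR domain knockout Gata4 (122 ± 7.74) and Gata6 (97.8 ± 0.55) were followed by Hand1 (53.1 ± 5.25) and Hand2 (44.6 ± 2.96), and Nkx2-5 was lowest at 2.24 ± 0.02. In the PR domain control Gata4 (89.3 ± 4.41) and Gata6 (86.4 ± 0.55) lay within the spread of Gata4, Isl1 reached 15.9 ± 1.61 and Tbx5 was lowest at 4.12 ± 0.53.

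**Figure D2:**
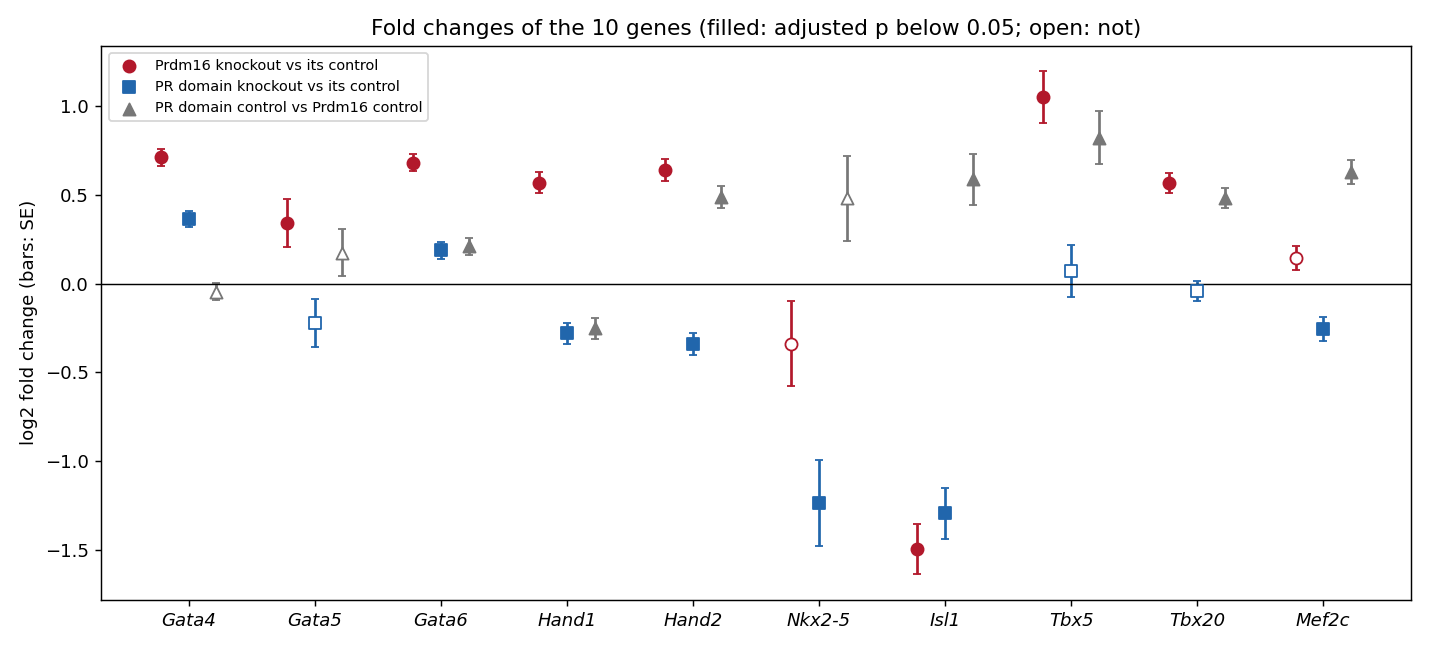
Log2 fold changes (vertical axis) of the 10 genes with SE bars, for the Prdm16 knockout against its control, the PR domain knockout against its control, and between the 2 control sets (PR domain over Prdm16), each from 2 against 2 libraries, with filled points for calls. Isl1 is lower in both knockouts, at -1.49 and -1.29, and Tbx5 is highest in the Prdm16 knockout, at 1.05.

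The promoters of 3 genes that moved differently are shown first. Isl1 fell in both knockouts, Hand2 was called in opposite directions in the 2 knockouts, and Tbx20 was called in the Prdm16 knockout only. The sequences are the 250 bases before the RefSeq start of each gene in GRCm38.p6, on the strand of the gene and 5′ to 3′, with matches to 6 short motifs in capitals. Hand2 lay at chr8:57320733-57320982 on the plus strand, Isl1 at chr13:116309689-116309938 on the minus strand and Tbx20 at chr9:24774304-24774553 on the minus strand.
Hand2: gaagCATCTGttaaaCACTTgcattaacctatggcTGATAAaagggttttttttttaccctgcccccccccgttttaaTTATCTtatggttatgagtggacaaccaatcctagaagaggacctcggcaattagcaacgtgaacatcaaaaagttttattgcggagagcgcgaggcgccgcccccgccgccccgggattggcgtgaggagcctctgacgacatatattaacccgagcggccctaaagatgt
Isl1: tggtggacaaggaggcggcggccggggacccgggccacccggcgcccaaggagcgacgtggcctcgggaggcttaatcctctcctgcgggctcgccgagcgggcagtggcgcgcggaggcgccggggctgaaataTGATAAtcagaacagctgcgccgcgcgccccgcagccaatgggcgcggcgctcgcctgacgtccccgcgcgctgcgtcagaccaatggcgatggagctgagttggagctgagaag
Tbx20: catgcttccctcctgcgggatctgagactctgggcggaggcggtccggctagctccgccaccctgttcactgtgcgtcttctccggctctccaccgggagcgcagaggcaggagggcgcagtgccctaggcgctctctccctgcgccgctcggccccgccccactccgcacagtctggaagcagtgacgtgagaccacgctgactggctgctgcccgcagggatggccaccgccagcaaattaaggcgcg
The motifs were searched on both strands. They were a GATA-type motif (A or T, then GATA, then A or G), an NK2-type motif with the letters AAGTG, a T-box-type motif with the letters GGTGTG, a HAND-type E-box with the letters CATCTG, a MEF2-type motif and a TATA motif with the letters TATAAA. The Hand2 window held 2 GATA-type matches, 1 NK2-type match and 1 HAND-type E-box, the Isl1 window held 1 GATA-type match, and the Tbx20 window held none of the 6 motifs. Of 32851 RefSeq promoter windows of the same length, 26.5% held a GATA-type, 40.7% an NK2-type, 16.3% a T-box-type, 14.4% a HAND-type, 3.2% a MEF2-type and 12.4% a TATA match, so that each kind found is common. The GC content was 49.2% for Hand2, 71.2% for Isl1 and 68.8% for Tbx20, against a median of 52.4% over all windows. RefSeq windows were at hand for 6 of the 10 genes, and Gata4, Gata6, Hand1 and Tbx5 are named only.

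Gata4 encodes a zinc finger activator needed for heart tube formation, and rose in both knockouts. The gene (chr14:63198922-63271692, minus strand, GRCm38, GENCODE M21) had 2646 and 2510 normalised fragments in the Prdm16 knockout against 1613 and 1539 in its control. It had 1966 and 1964 in the PR domain knockout against 1525 and 1530 in its control. Both knockouts lay above every control library, and the 4 control libraries spanned 1525 to 1613. The log2 fold change was 0.71 ± 0.047 SE in the Prdm16 knockout (limma adjusted p = 3.07e-13). It was 0.36 ± 0.047 in the PR domain knockout (limma adjusted p = 6.04e-07). Between the control sets it was -0.04 ± 0.047 (limma adjusted p = 0.511), so no difference of the control sets was detected for Gata4.

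Gata6, a close relative of Gata4 with overlapping roles in heart and endoderm, lies on chromosome 18. Its level was 2413 and 2327 normalised fragments in the Prdm16 knockout against 1500 and 1457 in its control. It had 1924 and 1972 in the PR domain knockout against 1683 and 1737 in its control. Knockout and control libraries did not overlap in either set. The log2 fold change was 0.68 ± 0.047 SE in the Prdm16 knockout (limma adjusted p = 6.81e-13), with 0.19 ± 0.047 in the PR domain knockout (limma adjusted p = 0.00343). Without replicate 1 of the PR domain control the second call was lost (0.17, limma adjusted p = 0.0702). The PR domain control exceeded the Prdm16 control by 0.21 ± 0.047 (limma adjusted p = 0.000657), about the size of the PR domain knockout's own change. An antisense gene, Gata6os, overlaps the start of Gata6, and no source used here gives the strand setting of the counting, so reads of the pair cannot be told apart. A separate locus named for Gata6os changed by 0.18 in the Prdm16 knockout and by 0.09 in the PR domain knockout (limma adjusted p = 0.249 and 0.673).

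Gata5, the least abundant of the 3 GATA genes and needed in endocardium, lies at chr2:180325133-180334699 on the minus strand. Its level was 171 and 162 normalised fragments in the Prdm16 knockout against 145 and 119 in its control. It had 126 and 127 in the PR domain knockout against 141 and 156 in its control. Its knockout libraries lay above the control in the Prdm16 set and below it in the PR domain set. The rise in the Prdm16 knockout was small (log2 fold change 0.34 ± 0.13 SE, limma adjusted p = 0.0415). That call was lost without either knockout library (limma adjusted p = 0.168 and 0.0713), without replicate 2 of the control (log2 fold change 0.19, limma adjusted p = 0.369) and in DESeq2 (adjusted p = 0.162). In the PR domain knockout the log2 fold change was -0.22 ± 0.13 (limma adjusted p = 0.277). The ratio of Gata4 to Gata5 in normalised fragments was 15.5 and 15.5 in the Prdm16 knockout against 11.1 and 13.0 in its control. It was 15.5 and 15.4 in the PR domain knockout against 10.8 and 9.81 in its control, so in each set the balance of the pair lay further towards Gata4 in the knockout libraries. The ratio of Gata4 to Gata6 was 1.10 and 1.08 in the Prdm16 knockout against 1.07 and 1.06 in its control, and 1.02 and 0.996 in the PR domain knockout against 0.906 and 0.881 in its control. It too was higher in the knockout libraries of each set, by a smaller factor. In the Prdm16 set the log2 fold changes of Gata4 and Gata6, 0.71 and 0.68, lay within the SE of either (0.047). The change of this ratio was not tested.

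Hand1 and Hand2 encode related basic helix-loop-helix factors. In the mouse heart Hand1 is strongest in the left ventricle and Hand2 in the right ventricle and outflow tract. Both rose in the Prdm16 knockout and fell in the PR domain knockout. Hand1 (chr11:57828705-57832818, minus strand) had 1412 and 1339 normalised fragments in the Prdm16 knockout against 931 and 923 in its control. It had 618 and 664 in the PR domain knockout against 783 and 774 in its control. The libraries did not overlap in either set. The log2 fold change of Hand1 was 0.57 ± 0.059 SE in the Prdm16 knockout (limma adjusted p = 4.63e-09), with -0.28 ± 0.059 in the PR domain knockout (limma adjusted p = 0.000682). Its level in the PR domain control was below that in the Prdm16 control (-0.25 ± 0.059, limma adjusted p = 0.00123), the only one of the 10 genes called in that direction. The second locus named Hand1 was far weaker, with 42.2 and 28.6 normalised fragments in the Prdm16 knockout against 14.8 and 24.5 in its control. It had 17.9 and 26.5 in the PR domain knockout against 22.3 and 21.7 in its control, where the libraries overlapped. Its log2 fold change was 0.83 ± 0.32 in the knockout of Prdm16 (limma adjusted p = 0.0412) and -0.01 ± 0.32 in the PR domain knockout (limma adjusted p = 0.987).

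Hand2 (chr8:57320983-57324633, plus strand) had 1263 and 1201 normalised fragments in the Prdm16 knockout against 755 and 827 in its control. It had 835 and 917 in the PR domain knockout against 1065 and 1153 in its control. Ordered over the 4 groups, the Prdm16 knockout and the PR domain control were the high groups, the PR domain knockout lay below these, and the Prdm16 control was lowest. The log2 fold change was 0.64 ± 0.063 SE in the Prdm16 knockout (limma adjusted p = 1.33e-09), with -0.34 ± 0.063 in the PR domain knockout (limma adjusted p = 0.000133). The PR domain control exceeded the Prdm16 control by 0.49 ± 0.063 (limma adjusted p = 2.58e-07), a larger size than that of the fall in the PR domain knockout. GENCODE places the antisense gene Hand2os1 (chr8:57281117-57324233, minus strand) over the start and most of the span of Hand2, and without a known strand setting its reads and those of Hand2 cannot be told apart. The neighbouring long noncoding RNA gene Hdnr, counted at a locus of its own, changed by 0.02 in the Prdm16 knockout and by -0.11 in the PR domain knockout (limma adjusted p = 0.901 and 0.493). Between the control sets Hdnr differed by 0.62 (limma adjusted p = 7e-06). The ratio of Hand1 to Hand2 separated the 2 sets rather than the genotypes, at 1.12 and 1.11 in the Prdm16 knockout, 1.23 and 1.12 in its control, 0.740 and 0.724 in the PR domain knockout and 0.735 and 0.671 in its control.

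Isl1 encodes the LIM homeodomain factor of second heart field progenitors, which is switched off as these cells become muscle. It had the lowest log2 fold change of the 10 genes in both knockouts, although in the PR domain knockout Nkx2-5 lay within the SE of it. The gene (chr13:116298281-116309689, minus strand) had 50.9 and 57.2 normalised fragments in the Prdm16 knockout against 160 and 148 in its control. It had 97.8 and 90.2 in the PR domain knockout against 241 and 222 in its control. All 4 knockout libraries lay below all 4 control libraries. The log2 fold change was -1.49 ± 0.14 SE in the Prdm16 knockout (limma adjusted p = 8.5e-10), with -1.29 ± 0.14 in the PR domain knockout (limma adjusted p = 3.57e-08). The counts behind these values were 41 and 52 fragments in the Prdm16 knockout and 151 and 157 in its control. Both calls held under every alternative run, also against the control of the other set. The PR domain control exceeded the Prdm16 control by 0.59 ± 0.14 (limma adjusted p = 0.00169).

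Isl1 is also a gene of motor neurons, so markers of neurons were read beside it. Stmn2, a neuronal microtubule regulator, averaged 76.8 ± 3.38 normalised fragments in the Prdm16 knockout and 183 ± 2.76 in its control (SD, n = 2 each, log2 fold change -1.24, limma adjusted p = 4.56e-07). It averaged 39.1 ± 2.02 in the PR domain knockout and 112 ± 18.1 in its control (SD, n = 2 each, -1.48, limma adjusted p = 4.11e-08). The 15 neuronal marker loci summed to 256 and 271 in the Prdm16 knockout against 434 and 417 in its control, and to 224 and 244 in the PR domain knockout against 342 and 311 in its control. Most of this sum came in every group from Stmn2 and from the loci of Elavl3 and Neurod1, which also carry other genes whose reads cannot be told apart. The Elavl3 locus averaged 97.4 in the Prdm16 knockout and 131 in its control, and 101.5 and 101.8 in the PR domain knockout and its control. The Neurod1 locus averaged 57.5 and 39.1, and 56.6 and 62.3, in the same order. Of the 15 loci, 5 were abundant enough to be tested, and 3 fell and 1 rose in the Prdm16 knockout and 1 fell in the PR domain knockout. The defining motor neuron genes were at or near 0, with at most 2 fragments of Mnx1, 1 of Lhx3 and 1 of Chat in any library. Isl2 and Phox2a, also genes of motor or autonomic neurons, were detected at low levels, at most 7.22 and 15.5 normalised fragments in any library. The part of neurons in the fall of Isl1 was not tested.

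Nkx2-5, the homeobox gene that marks committed cardiac progenitors, lies at chr17:26838664-26845009 on the minus strand. Its level was 31.0 and 42.9 normalised fragments in the Prdm16 knockout against 46.7 and 46.1 in its control. It had 26.9 and 27.3 in the PR domain knockout against 57.8 and 73.3 in its control. It fell in the PR domain knockout (log2 fold change -1.23 ± 0.24 SE, limma adjusted p = 0.000263), and that call also held against the Prdm16 control. In the Prdm16 knockout the change was -0.34 ± 0.24 (limma adjusted p = 0.28), with both knockout libraries below both control libraries. That value was -0.11 without replicate 1 of the Prdm16 knockout and -0.57 without replicate 2 of it (neither called by limma). These are low counts, with 25 fragments in the lowest library (95% exact Poisson interval 16.2 to 36.9, counting error only). The control sets gave 0.48 ± 0.24 (limma adjusted p = 0.128).

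Tbx5 and Tbx20 encode T-box factors. Tbx5 marks the first heart field and later the left ventricle and atria, and Tbx20 acts in the growth and maintenance of heart muscle. Tbx5 (chr5:119832668-119885219, plus strand) had 160 and 138 normalised fragments in the Prdm16 knockout against 65.7 and 77.1 in its control. It had 128 and 138 in the PR domain knockout against 133 and 121 in its control. The Prdm16 control was the low group and the PR domain knockout overlapped both remaining groups. Tbx5 rose in the Prdm16 knockout with the largest log2 fold change among the 10 genes (1.05 ± 0.15 SE, limma adjusted p = 9.75e-07), and changed by 0.07 ± 0.15 in the PR domain knockout (limma adjusted p = 0.808). The PR domain control exceeded the Prdm16 control by 0.82 ± 0.15 (limma adjusted p = 4.5e-05).

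Tbx20 (chr9:24718138-24774303, minus strand) had 1182 and 1189 normalised fragments in the Prdm16 knockout against 826 and 778 in its control. It had 1104 and 1069 in the PR domain knockout against 1111 and 1126 in its control. As with Tbx5, the Prdm16 control stood below the other 6 libraries. Tbx20 rose in the Prdm16 knockout (0.56 ± 0.055 SE, limma adjusted p = 1.46e-09), and the change in the PR domain knockout was -0.04 ± 0.055 (limma adjusted p = 0.68). The control sets differed by 0.48 ± 0.055 (limma adjusted p = 3.63e-08). The ratio of Tbx20 to Nkx2-5 was 38.1 and 27.7 in the Prdm16 knockout against 17.7 and 16.9 in its control, and 41.0 and 39.2 in the PR domain knockout against 19.2 and 15.4 in its control. In each set the knockout libraries had the higher ratio.

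Mef2c encodes the MADS box activator of muscle genes that works beside the other factors. The gene (chr13:83504034-83667080, plus strand) had 664 and 643 normalised fragments in the Prdm16 knockout against 587 and 595 in its control. It had 820 and 715 in the PR domain knockout against 954 and 875 in its control. The change in the Prdm16 knockout was 0.14 ± 0.069 SE (limma adjusted p = 0.0998), which edgeR's quasi-likelihood test on recovered fragments called (0.19, adjusted p = 0.0309). It was also called by limma-voom (0.19, adjusted p = 0.0375). With TMM scaling or the size factors of DESeq2, limma called it too (0.18 in both, limma adjusted p = 0.0357 and 0.0343). Mef2c fell in the PR domain knockout (-0.26 ± 0.069, limma adjusted p = 0.0072). That call was lost without replicate 2 of the PR domain knockout (-0.16, limma adjusted p = 0.206), without replicate 1 of its control (-0.19, limma adjusted p = 0.159) and in DESeq2 (adjusted p = 0.118). The PR domain control stood above the Prdm16 control by 0.63 ± 0.069 (limma adjusted p = 1.33e-08), more than either knockout effect. The ratio of Mef2c to Isl1 was 13.0 and 11.2 in the Prdm16 knockout against 3.67 and 4.03 in its control, and 8.39 and 7.93 in the PR domain knockout against 3.95 and 3.94 in its control. The 4 control libraries thus had nearly the same balance of the pair, and all 4 knockout libraries lay above them.

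Read over all 10 genes, knockout and control libraries did not overlap for 8 genes that were higher and 2 that were lower in the Prdm16 knockout, where 31.3% of all tested loci were higher and 36.5% lower in that sense (67.8% in all). In the PR domain knockout 2 genes were higher and 7 lower without overlap, against 24.7% and 31.9% of all loci (56.6% in all). Between the control sets 7 genes were higher and 2 lower in the PR domain control without overlap, against 32.1% and 33.1% of all loci (65.2% in all). When the deposited FPKM values were tested in place of normalised fragments, 5 genes were called in the Prdm16 knockout, all but Gata5, Tbx5 and Tbx20 of the original calls (limma adjusted p for these = 0.212, 0.0516 and 0.0953). On that scale 3 genes were called in the PR domain knockout, which were Gata4, Nkx2-5 and Isl1. Calls were lost over all loci too. In the Prdm16 knockout 2244 loci were called on FPKM, against 6502 on normalised fragments, and in the PR domain knockout 582 against 3190.

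The difference between the 2 knockout effects was tested as an interaction, Prdm16 effect minus PR domain effect. It was called for 8 of the 10 genes, all with a more positive effect in the Prdm16 knockout, where 8.60% of tested loci were called in that direction and 7.81% in the other (16.4% in either). Over all loci 52.42% of the calls were in that direction, against 36.99% with total-fragment scaling. Among the called genes, the largest differences were those of Hand2 (0.98 ± 0.089 SE, limma adjusted p = 1.25e-09), Tbx5 (0.98 ± 0.21, limma adjusted p = 0.00108) and Hand1 (0.85 ± 0.084, limma adjusted p = 7.68e-09). Tbx20, Gata5, Gata6, Mef2c and Gata4 followed with 0.61, 0.56, 0.49, 0.40 and 0.35. For Isl1 the difference was -0.20 ± 0.20 (limma adjusted p = 0.558) and for Nkx2-5 0.90 ± 0.34 (limma adjusted p = 0.0687), and for neither does this show equal effects. The Nkx2-5 difference was called by edgeR (0.98, adjusted p = 0.0441) and by limma without replicate 1 of the Prdm16 knockout (1.12, adjusted p = 0.0318). On FPKM values 1 of the 8 calls was left, that of Hand2, while over all loci 199 were called, against 2728 on normalised fragments.

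The difference of effects contains the difference of the 2 wild-type sets. Of the 10 genes, 6 were higher and 1 lower in the PR domain control than in the Prdm16 control, where 16.3% of all tested loci were called higher and 16.7% lower (33.0% in either direction). The 2 control sets carry the same genotype, strain and day in the labels. Each knockout was therefore also compared with the control of the other set, an alternative chosen after seeing the data. Against either control, Gata4, Gata6 and Hand1 rose and Isl1 fell in the Prdm16 knockout. The log2 fold changes against the other control were 0.75, 0.47, 0.82 and -2.08 in that order, beside 0.71, 0.68, 0.57 and -1.49 against its own (limma adjusted p against the other control at most 9.44e-10). The calls of Hand2 (0.15, limma adjusted p = 0.0512), Tbx5 (0.23, 0.231), Tbx20 (0.08, 0.242) and Gata5 (0.17, 0.342) in the Prdm16 knockout were lost, and Mef2c turned to -0.48 (limma adjusted p = 9.21e-07). Nkx2-5 was called lower there (-0.82, limma adjusted p = 0.00677).

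For the PR domain knockout, Gata4 and Gata6 rose and Hand1, Nkx2-5 and Isl1 fell against either control. Against the Prdm16 control these log2 fold changes were 0.32, 0.40, -0.53, -0.75 and -0.71 (limma adjusted p at most 0.012), beside 0.36, 0.19, -0.28, -1.23 and -1.29 against its own. Hand2 turned to 0.15 (limma adjusted p = 0.0586), Mef2c to 0.37 (5.37e-05) and Tbx20 to 0.44 (1.3e-07), and Tbx5 was called higher at 0.89 (9.8e-06). The 2 comparisons of a knockout share its libraries and are set side by side only as values. Gata4 and Gata6 thus were called higher, and Isl1 lower, in both knockouts against both wild-type sets.

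**Figure D3:**
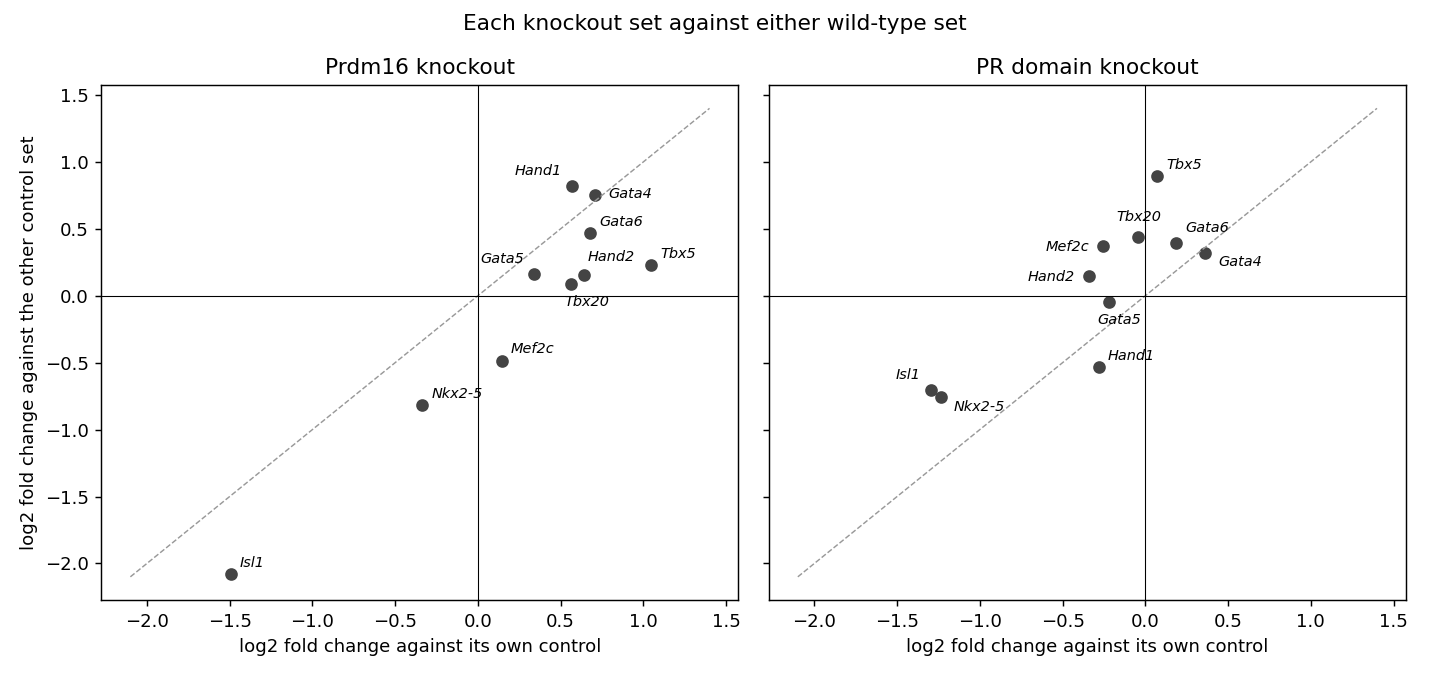
Log2 fold change of each of the 10 genes against the control of the other set (vertical axis) and against its own control (horizontal axis), for the Prdm16 knockout on the left and the PR domain knockout on the right, with the line of equal values dashed. Isl1 lies at the lower left in both panels, and Mef2c, Hand2 and Tbx20 change sign against the other control in the PR domain knockout.

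For each of the 10 genes, the genes most like it were taken as those with the largest Pearson correlation of log2(value + 1) over the 8 libraries, among 10154 loci (10155 for Nkx2-5) with a single gene name and a mean of at least 50 normalised fragments. The 8 libraries are 4 groups of 2, so these coefficients describe mostly the order of 4 group means. Gata4 was closest to Efnb1, an ephrin ligand (r = 0.998, n = 8 libraries), Agfg2 and Kcnk5. Isl1 was closest to Champ1 (0.995, n = 8 libraries), Tcf4 and Sphkap. Tbx5 was closest to Ech1 (0.991, n = 8 libraries), Grk5 and Akt1, and Tbx20 to Fosl2 (0.989, n = 8 libraries), Dact1 and Coq3. Nkx2-5 was closest to Atad1 (0.988, n = 8 libraries) and then to Rbm20, a splicing regulator of heart muscle (0.983, n = 8 libraries). Hand2 was closest to Klf4 (0.975, n = 8 libraries), Hand1 to Dis3 (0.992, n = 8 libraries), Gata6 to Abat (0.993, n = 8 libraries) and Mef2c to Arrdc3 (0.977, n = 8 libraries). Gata5 had the weakest best match, Emc4 (0.933, n = 8 libraries).

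Other regulators of the heart fields moved in both directions in the Prdm16 knockout. Of 25 tested, 8 rose and 10 fell there (median log2 fold change -0.02), and 5 rose and 15 fell in the PR domain knockout (median -0.30). Eya1, a gene of second heart field and pharyngeal progenitors, changed by -2.31 and -1.05 in the Prdm16 and the PR domain knockout (limma adjusted p = 1.3e-13 and 2.19e-06), and the mesenchymal homeobox gene Prrx1 by -2.19 and -0.996 (3.48e-14 and 9.09e-07). Myocd, a coactivator of muscle genes, fell to 94.0 ± 5.39 in the PR domain knockout, against 296 ± 43.4 in its control (SD, n = 2 each, -1.64, limma adjusted p = 4.56e-10), and changed by -0.91 in the Prdm16 knockout (limma adjusted p = 7.85e-06). Wt1, a gene of the epicardium, rose by 1.12 and 1.15 in the Prdm16 and the PR domain knockout (limma adjusted p = 6.93e-12 and 9.88e-12).

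Signals that induce the heart were divided as well, in a list that also holds the ion channel gene Hcn4. Of 18 tested, 8 rose (Hcn4 among them) and 7 fell in the Prdm16 knockout (median 0.06), and 4 rose and 9 fell in the PR domain knockout (median -0.35). Fgf8, a ligand of the second heart field, averaged 18.2 ± 2.37 normalised fragments in the Prdm16 knockout and 79.6 ± 3.13 in its control (SD, n = 2 each, -2.08, limma adjusted p = 2.06e-06), and changed by -0.85 in the PR domain knockout (limma adjusted p = 0.046). Aldh1a2, the enzyme that makes retinoic acid, rose by 1.01 in the Prdm16 knockout and by 0.88 in the PR domain knockout (limma adjusted p = 1.91e-07 and 4.15e-06). Pdgfra, a receptor of early cardiac mesoderm, rose by 0.67 and 0.28 in the Prdm16 and the PR domain knockout (limma adjusted p = 9.51e-13 and 3.51e-05), at a locus that also carries a microRNA gene. Tdgf1, the Nodal co-receptor, changed by -1.01 and -2.11 (limma adjusted p = 2.75e-05 and 1.04e-10).

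Close relatives of the 10 genes gave 4 rises and 8 falls of 21 tested in the Prdm16 knockout and 1 rise and 7 falls in the PR domain knockout. Some of them, such as Tbx1, are also counted among the other heart field regulators above. Tbx1, a T-box gene of pharyngeal and second heart field progenitors, changed by -2.89 and -1.67 in the Prdm16 and the PR domain knockout (limma adjusted p = 1.63e-08 and 0.000229). Nkx2-3 changed by -1.53 and -1.15 (limma adjusted p = 2.57e-06 and 0.000329) and Twist1 by -1.18 and -0.78 (2.27e-09 and 7.45e-06). Gata1, the GATA gene of red blood cells, rose in the PR domain knockout (1.09, limma adjusted p = 0.000245) and changed by 0.51 in the Prdm16 knockout (limma adjusted p = 0.0525). The median of these relatives was -0.14 in the Prdm16 knockout and lay at -0.18 in the PR domain knockout.

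Genes of the contractile apparatus and other cardiac targets show that heart muscle transcripts were present in every library. Of 23 tested loci, 2 rose and 15 fell in the Prdm16 knockout (median -0.47), and 2 rose and 19 fell in the PR domain knockout (median -0.92). Their summed level was 14920 and 14787 normalised fragments in the Prdm16 knockout against 17289 and 18014 in its control. It was 18438 and 18022 in the PR domain knockout against 32839 and 33254 in its control, and the 2 control sets did not overlap. Myl2, the ventricular light chain, changed by -1.56 in the Prdm16 knockout and by -0.61 in the PR domain knockout (limma adjusted p = 1.67e-15 and 1.6e-06). Myl7, the atrial light chain, changed by -0.74 and -1.29 (limma adjusted p = 3.1e-12 and 2.28e-17). The joint locus of the heavy chain genes Myh6 and Myh7 averaged 2201 ± 150 in the PR domain knockout and 6291 ± 337 in its control (SD, n = 2 each, -1.51, limma adjusted p = 1.6e-19), and Myh6 and Myh7 changed together by -0.43 in the Prdm16 knockout (limma adjusted p = 3.21e-08). Tnni1, a slow skeletal and embryonic heart troponin, rose in the Prdm16 knockout (0.53, limma adjusted p = 2.53e-11), whereas it fell in the PR domain knockout (-0.14, limma adjusted p = 0.0196). Gata4 and Gata6 thus were higher, and the summed cardiac targets lower, in the libraries of both knockouts than in those of their own controls.

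Because Gata4 and Gata6 are also genes of endoderm, the 16 endoderm markers were read beside them. In the Prdm16 knockout 10 rose and none fell, and in the PR domain knockout 14 rose and 2 fell. Their summed level was 88250 and 89111 normalised fragments in the Prdm16 knockout against 42206 and 43932 in its control, and 13463 and 13363 in the PR domain knockout against 8235 and 8352 in its control. Apob, a lipoprotein gene of yolk sac and liver, rose by 0.93 and 1.18 in the Prdm16 and the PR domain knockout, and Rbp4 by 1.15 and 0.88 (limma adjusted p at most 1.98e-16). Between the control sets the endoderm sum in the PR domain control was 0.193 times that in the Prdm16 control, while Gata4 differed by -0.04 and Gata6 by 0.21 on the log2 scale. The part of endoderm in the rise of Gata4 and Gata6 within a set was not tested.

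Other cell types also moved with the genotypes. The 12 endothelial markers, of interest for Mef2c, summed to 6420 and 6650 in the Prdm16 knockout against 6904 and 6882 in its control, and to 6197 and 6076 in the PR domain knockout against 8600 and 8851 in its control. All 12 fell in the PR domain knockout, and 2 rose and 6 fell in the Prdm16 knockout. The 10 macrophage and blood markers summed to 10463 and 10473 in the Prdm16 knockout against 6713 and 6729 in its control, and to 22224 and 22043 in the PR domain knockout against 11561 and 11082 in its control. Most of this sum came in every group from the globin genes Hbb-y and Hbb-bh1. Hbb-y changed by -0.28 and 0.93 in the Prdm16 and the PR domain knockout, and Hbb-bh1 by 1.15 and 0.95 (limma adjusted p at most 9.72e-07). Of the 10 markers, 7 rose and 1 fell (Hbb-y) in the Prdm16 knockout, and 9 rose and none fell in the PR domain knockout. The 8 smooth muscle markers summed to 6821 and 6748 in the Prdm16 knockout against 6140 and 6368 in its control, and to 7136 and 7221 in the PR domain knockout against 11120 and 10822 in its control. Most of the smooth muscle sum came from Acta2, with 4840 and 4776 in the Prdm16 knockout against 4136 and 4331 in its control. Acta2 had 4156 and 4137 in the PR domain knockout against 7656 and 7403 in its control. Of 7 tested smooth muscle markers, 1 rose (Acta2) and 2 fell in the Prdm16 knockout, and 1 rose and 3 fell in the PR domain knockout. Of the 5 tested markers of trophoblast and extraembryonic mesoderm, which bear on Hand1, 3 rose in the Prdm16 knockout and 2 fell in the PR domain knockout. Their list of 11 loci summed to 3328 and 3394 in the Prdm16 knockout against 2896 and 2950 in its control, and to 3460 and 3049 in the PR domain knockout against 3751 and 3787 in its control. Most of this sum came from Ahnak, a broadly expressed gene, with 2563 and 2589 in the Prdm16 knockout against 2279 and 2359 in its control, and 2789 and 2401 in the PR domain knockout against 2976 and 3094 in its control. The trophoblast genes Prl3d1, Prl2c2, Elf5, Gcm1, Tpbpa and Ascl2 were at 0 or low, with at most 12.7 normalised fragments of any in a library. Plac1, another trophoblast gene, had 49.6 and 41.8 in the Prdm16 knockout against 42.4 and 39.5 in its control. Plac1 had 24.2 and 26.5 in the PR domain knockout against 19.3 and 22.7 in its control. It was called in neither knockout (limma adjusted p = 0.689 and 0.561). Skeletal muscle markers stayed at 3.30 to 21.6 normalised fragments summed over 9 loci in any library. The part of these cell types in the changes of Mef2c and Hand1 was not tested.

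**Figure D4:**
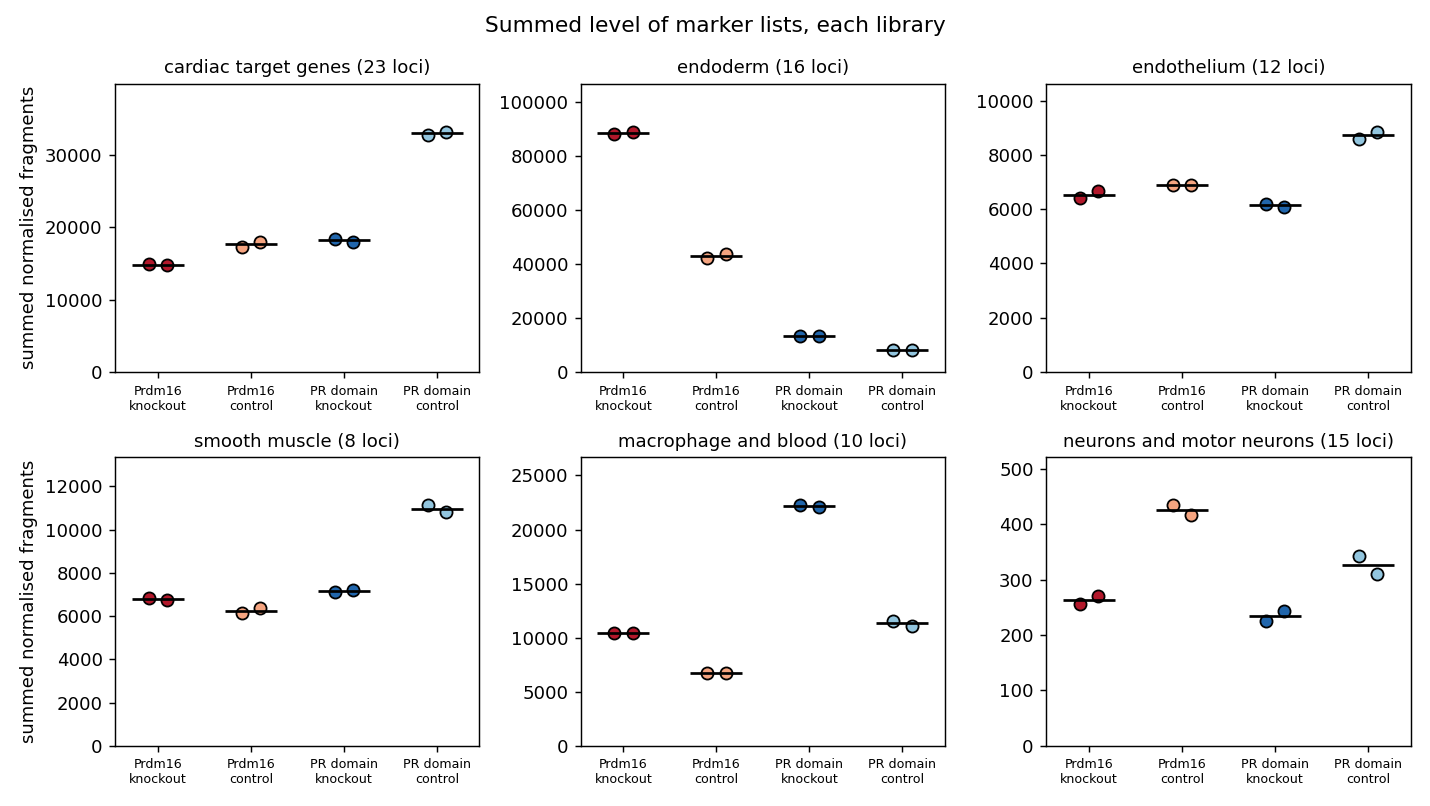
Summed normalised fragments (vertical axis, from 0) of 6 marker lists in each of the 8 libraries, by group, with a bar at the mean of 2 libraries. Endoderm markers stand at 88250 and 89111 in the Prdm16 knockout against 42206 and 43932 in its control, and cardiac target genes at 18438 and 18022 in the PR domain knockout against 32839 and 33254 in its control.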

How the data were processed

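RNA-seq was measured in 8 TruSeq libraries of day-9 embryoid bodies, grouped by their titles into 4 groups of 2. Cufflinks 2.2.1, TopHat2 2.1.1, deepTools, SAMtools 1.5 and the mm10 build stand in the submitters' processing notes, without roles. No source used here gives the annotation release or the strand setting. The deposited signal was taken to be the fragments of a locus divided by a size factor of its library. Dividing by 1 step per library gave whole fragments (tolerance 0.1) for at least 99.9962% of values. FPKM values deposited by the authors served for levels between genes and as an alternative. Of 53068 distinct loci, 787 had no gene name (1.88 to 2.53% of fragments) and were left out, and 1390 named loci carried 2 or more names.

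The 16623 loci that reached 10 normalised fragments in 2 or more libraries were tested with limma 3.58.1 (trend) in R 4.3.3 on log2(value + 1), with 4 group means fitted to all 8 libraries (4 residual and 25.4 prior degrees of freedom) and Benjamini-Hochberg adjustment over all loci. Each knockout was set against its control, the knockout effects against each other, and the PR domain control against that of the Prdm16 set. Alternatives were edgeR 4.0.16 and DESeq2 1.42.0 on recovered fragments, limma-voom, other scalings, pseudocounts and filters, FPKM, a replicate block, each library left out, and, added later, other control sets. The scripts were tested on simulated data. Replicates differed by more than sampling noise (chi-square per degree of freedom 1.39 to 2.17).

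The 10 genes were taken by name. These genes and the marker lists were chosen with earlier results of these data known. Some genes stand in several lists, so the counts and sums of different lists are not independent. From each list, the genes named are among the 4 with the smallest adjusted p in a comparison, except Prdm16, and except Stmn2, Mnx1, Lhx3, Chat, Hdnr and Gata6os, which are named as markers or neighbours. Isl2, Phox2a, Ahnak, Hcn4 and the trophoblast genes were named after their values were seen. Changes of such a gene in the other knockout stand beside it. Sequences and coordinates came from RefSeq (GRCm38.p6) and GENCODE M21. Some listed genes are not reported here.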

Additional observations from a re-analysis of the deposited data

Results flagged for a closer look

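For 8 of the 10 genes the effect of the Prdm16 knockout differed from that of the PR domain knockout in an interaction test (limma, Prdm16 effect minus PR domain effect, log2 scale). This test called 16.4% of all tested loci, 8.60% with a more positive effect in the Prdm16 knockout and 7.81% in the other direction. The differences were 0.98 for Hand2, 0.98 for Tbx5, 0.85 for Hand1, 0.61 for Tbx20, 0.56 for Gata5, 0.49 for Gata6, 0.40 for Mef2c and 0.35 for Gata4. Hand1 and Hand2 were called in opposite directions in the 2 knockouts, Gata4 and Gata6 in the same direction with a larger rise in the Prdm16 knockout. The difference of Gata5 lost its call in 6 of the 8 fits that leave out 1 library. The 2 sets also differed in their wild-type libraries for 7 of the 10 genes, where 33.0% of all tested loci were called. Genotype and set therefore cannot be told apart in these differences.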

How the results depend on the processing

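Of 830 fold changes of the 10 genes under other settings of the processing, 785 kept direction and side of the threshold, 38 lost the call, 6 gained it and 1 turned (Isl1, difference of effects on FPKM, 0.072). Some settings leave the fold change itself unchanged and could not turn it. These include the replicate block and leaving out a library of a group outside the comparison. On FPKM the genes called came to 5 in the Prdm16 knockout, 3 in the PR domain knockout, 1 in the difference and 3 between the controls, and all loci called to 2244, 582, 199 and 1717, against 6502, 3190, 2728 and 5481 in the main test. DESeq2 called 3983, 1797, 1179 and 3388 loci, and without the filter on low values the difference had 1642. Leaving out 1 library gave 7 to 8, 5 to 7, 7 to 8 and 7 to 7 genes in the same order of comparisons, and 5028 to 6477, 2180 to 3367, 1950 to 2390 and 4047 to 5675 loci. The lone library left in a group is assumed to vary like the others. Scaling by total fragments moved the share of higher calls among loci in the difference to 36.99%, against 52.42%, and DESeq2 scaling that in the PR domain knockout to 54.43%, against 44.2%.

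Under 2 alternatives chosen after seeing the data, the PR domain knockout had 6880 loci called against the other control set and 5644 against the mean of both. Against the other set, Mef2c turned to -0.48 in the Prdm16 knockout, and Hand2, Tbx20 and Mef2c to 0.15, 0.44 and 0.37 in the PR domain knockout. Against the mean of both sets, Mef2c turned to -0.17 in the Prdm16 knockout, and Tbx20 and Mef2c to 0.20 and 0.058 in the PR domain knockout. The control sets differ for these genes, and the cause was not tested.

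Same-numbered libraries did not deviate together (correlation -0.0363 to 0.0311), so no pairing by replicate number was detected. Whether same-numbered libraries were prepared together cannot be told from this. With the replicate number as a block, 8, 7, 8 and 7 genes and 6438, 3149, 2686 and 5442 loci were called. Low counts of Nkx2-5 and Isl1 limit their precision.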
